A study of Mus musculus with 24 samples.

Results

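Bmp4, Igfbp5, Kctd12, Mxd4 and Gm16386 are the genes that were up-regulated in the largest number of conditions of a retinoid differentiation series in P19 cells. They were matched by exact symbol in the first column of all 23 deposited tables, and they are 5 of the 1753 genes that appear in at least 1 table. These tables also chose them, so the counts and sizes that follow describe the 5 genes and are not tests. P19 is a mouse embryonal carcinoma line, a pluripotent tumour line that makes neurons and glia when exposed to retinoic acid.

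RNA sequencing covered 24 samples with 1 library each, so no difference below has a replicate check. WT cells were sampled at days 2, 4 and 10 with all-trans retinoic acid (ATRA, 1 µM, which activates all the retinoic acid receptors), the RARα agonist BMS753 (1 µM), the RARβ agonist BMS641 and the RARγ agonist BMS961 together (0.1 µM each), or ethanol (EtOH), the vehicle, and at day 10 also with BMS961 alone (0.1 µM). The raraKO, rarbKO and rargKO lines carry a CRISPR/Cas9 disruption of 1 receptor gene with a puromycin resistance cassette, and were sampled at day 10 only. Whether each line is 1 clone is not given in the sources used here. The raraKO line received ATRA, BMS961 or BMS641+BMS961. The rarbKO line received ATRA, BMS753, BMS961 or BMS641+BMS961, and the rargKO line ATRA, BMS753, BMS641 or BMS641+BMS961. Day 10 samples had 4 d of ligand followed by 6 d in Neurobasal medium with N2 and B27 free of vitamin A, so day and medium cannot be told apart. Every table compares 1 library with the same reference, the WT library after 2 d of ethanol. The 24 samples include no vehicle sample of a mutant line. Any contrast of a mutant line with vehicle is therefore with WT vehicle, and line and ligand cannot be told apart in it. Rara, Rarb and Rarg are in 0 of the 23 tables, so the loss of the receptors could not be checked in them. The authors measured each receptor by RT-qPCR in WT and mutant lines under ATRA, and those values are not used here. A gene absent from a table is called not listed, an absence that leaves unknown whether it changed.

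The 5 genes differ in what they encode. Bmp4 encodes a secreted ligand of the TGFβ superfamily that acts through SMAD proteins, directs mesoderm and epidermis in the embryo and counters the neural fate. Igfbp5 encodes a secreted protein that binds insulin-like growth factors in the extracellular matrix. Kctd12 encodes an auxiliary subunit of the GABAB receptor, the metabotropic receptor of the neurotransmitter GABA. Mxd4 encodes a nuclear partner of MAX that represses transcription and competes with MYC, the growth-promoting MAX partner that it opposes as cells stop dividing and differentiate. Gm16386 is a noncoding gene of unknown role.

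In mm9 coordinates, Bmp4 lies on chromosome 14 from 47003195 to 47010344, Igfbp5 on chromosome 1 from 72904506 to 72921458, Kctd12 on chromosome 14 from 103377437 to 103381745, Mxd4 on chromosome 5 from 34516536 to 34530369, and Gm16386 on chromosome 17 from 22921765 to 22954708. All 5 are on the minus strand. The GENCODE vM1 annotation lists Gm16386 as a lincRNA with 3 exons and RefSeq as a transcribed pseudogene. No coding transcript of GENCODE vM1 aligned to its 1423 exonic bases over more than 105 bases, and the best match, to Cpeb3, was 87.6% identical there. GENCODE vM1 lists Kctd12 as a pseudogene, whereas RefSeq lists it as protein coding. Bmp4 overlaps Gm15217 and Gm15222 and Kctd12 overlaps Gm17446, all on the other strand. The library kit named in the labels does not mark strand, so reads of these pairs cannot be told apart, although Gm15217, Gm15222 and Gm17446 are in 0 of the 23 tables.

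RefSeq promoter entries matched 4 of the 5 genes, without Gm16386. The 250 bases before the RefSeq start of each are shown because the 4 genes were each up-regulated in most tables, although not in the same ones. They are written 5′ to 3′ along the gene, each has 1 exact match in the mm9 genome, and capitals mark the motifs found.
Bmp4, chr14:47010345-47010594, minus strand: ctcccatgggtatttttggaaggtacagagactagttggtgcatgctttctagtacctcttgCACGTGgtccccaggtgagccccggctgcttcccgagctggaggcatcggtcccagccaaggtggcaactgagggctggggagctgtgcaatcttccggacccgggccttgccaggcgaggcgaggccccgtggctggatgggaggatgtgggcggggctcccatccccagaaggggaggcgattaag
Igfbp5, chr1:72921440-72921689, minus strand: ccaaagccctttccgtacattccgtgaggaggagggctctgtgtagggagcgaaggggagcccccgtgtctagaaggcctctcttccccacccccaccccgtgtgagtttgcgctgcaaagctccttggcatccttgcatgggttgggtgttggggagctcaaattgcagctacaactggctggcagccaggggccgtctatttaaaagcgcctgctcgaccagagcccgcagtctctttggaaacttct
Kctd12, chr14:103381855-103382104, minus strand: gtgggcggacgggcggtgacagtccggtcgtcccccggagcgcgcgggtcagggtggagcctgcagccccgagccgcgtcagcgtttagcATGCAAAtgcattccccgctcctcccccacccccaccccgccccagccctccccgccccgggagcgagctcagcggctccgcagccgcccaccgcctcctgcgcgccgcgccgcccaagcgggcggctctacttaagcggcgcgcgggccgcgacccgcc
Mxd4, chr5:34530360-34530609, minus strand: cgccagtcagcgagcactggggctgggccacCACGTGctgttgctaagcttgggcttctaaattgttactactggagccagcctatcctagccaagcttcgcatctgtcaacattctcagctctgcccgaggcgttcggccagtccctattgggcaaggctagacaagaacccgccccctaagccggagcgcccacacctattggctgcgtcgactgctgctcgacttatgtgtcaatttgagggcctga
The windows were searched on both strands for the E-box CACGTG, which dimers of MAX bind, for AGGTCA, the nuclear receptor half-site, for ATGCAAA, the core of the octamer that POU factors bind, and for TATAAA, the TATA box. These motifs were chosen after the sequences were seen and do not overlap one another here. CACGTG begins 188 bases before the start of Bmp4 and 219 bases before that of Mxd4, and 6.02% of 32851 RefSeq promoter windows of this length hold it. ATGCAAA begins 160 bases before the start of Kctd12, and 4.12% of the windows hold it. AGGTCA and TATAAA are in 0 of the 4 windows, against 14.0% and 12.4% of all windows. Kctd12 had the window richest in G and C, at 77.6%, and the other 3 lay between 58.0% and 63.2%.

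Across the 23 tables, Mxd4 was up-regulated in 21, Bmp4 and Kctd12 in 20 each, and Igfbp5 and Gm16386 in 18 each. Up-regulated here means a deposited log2 fold change over 2, or 4-fold, in a table whose p-values are all under 0.01. None of the 5 genes was down-regulated in any of the 23 tables. With a p-value limit of 0.001 the counts were 10 for Mxd4, 12 for Bmp4, 11 for Kctd12, 14 for Igfbp5 and 0 for Gm16386. Of the 1753 genes, 0.057% were up-regulated in 21 or more tables, 0.171% in 20 or more and 0.285% in 18 or more. The last are the 5 members, whereas the median gene was up-regulated in 1 table. Just outside that limit, 7 genes were up-regulated in 17 tables, namely Cdkn2c, Col11a1, Col12a1, Gadd45g, Irx3, Nr2f2 and Rbl2.

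Bmp4, Igfbp5 and Kctd12 were up-regulated in all 16 day 10 tables, as was 0.342% of the 1753 genes. The other 3 genes that did so were Arrdc4, Cdkn2c and Col11a1. Gm16386 was up-regulated in the 15 day 10 tables with a ligand, as was 0.456% of the genes. Mxd4 missed WT cells with BMS641+BMS961. Vehicle was not common to all 5. In the ethanol table of day 10, 4 of the 5 were up-regulated, against 9.53% of all genes, and in that of day 4 Kctd12 and Mxd4 were, against 1.65%. Gm16386 is in neither ethanol table, so the description of a rise that includes vehicle holds for Bmp4, Igfbp5, Kctd12 and Mxd4 and not for Gm16386. With the standard errors of the tables that list it, a Gm16386 value under a limit of 5.94 to 6.70 would not have been listed.

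Days 2 and 4 held most of the absences. At day 2 in WT cells, 2 of the 5 genes were up-regulated with ATRA, against 5.65% of all genes, 2 with BMS753, against 6.39%, and 2 with BMS641+BMS961, against 3.71%. At day 4, 4 were up-regulated with ATRA, against 10.2%, 4 with BMS753, against 8.33%, and 3 with BMS641+BMS961, against 2.22%. At day 10 in WT cells, all 5 were up-regulated with ATRA, BMS753 and BMS961, against 22.5%, 21.8% and 8.16% of all genes, and 4 with BMS641+BMS961, against 9.87%. In the raraKO line all 5 were up-regulated with ATRA, BMS961 and BMS641+BMS961, against 19%, 10.9% and 16.8%. The rarbKO line also had all 5 with ATRA, BMS753, BMS961 and BMS641+BMS961, against 20.5%, 22.3%, 7.02% and 8.27%. So had the rargKO line with ATRA, BMS753, BMS641 and BMS641+BMS961, against 21.4%, 19.9%, 8.5% and 8.61%. The members were chosen on these same contrasts, so nothing is read from their counts against these shares.

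**Figure D1:**
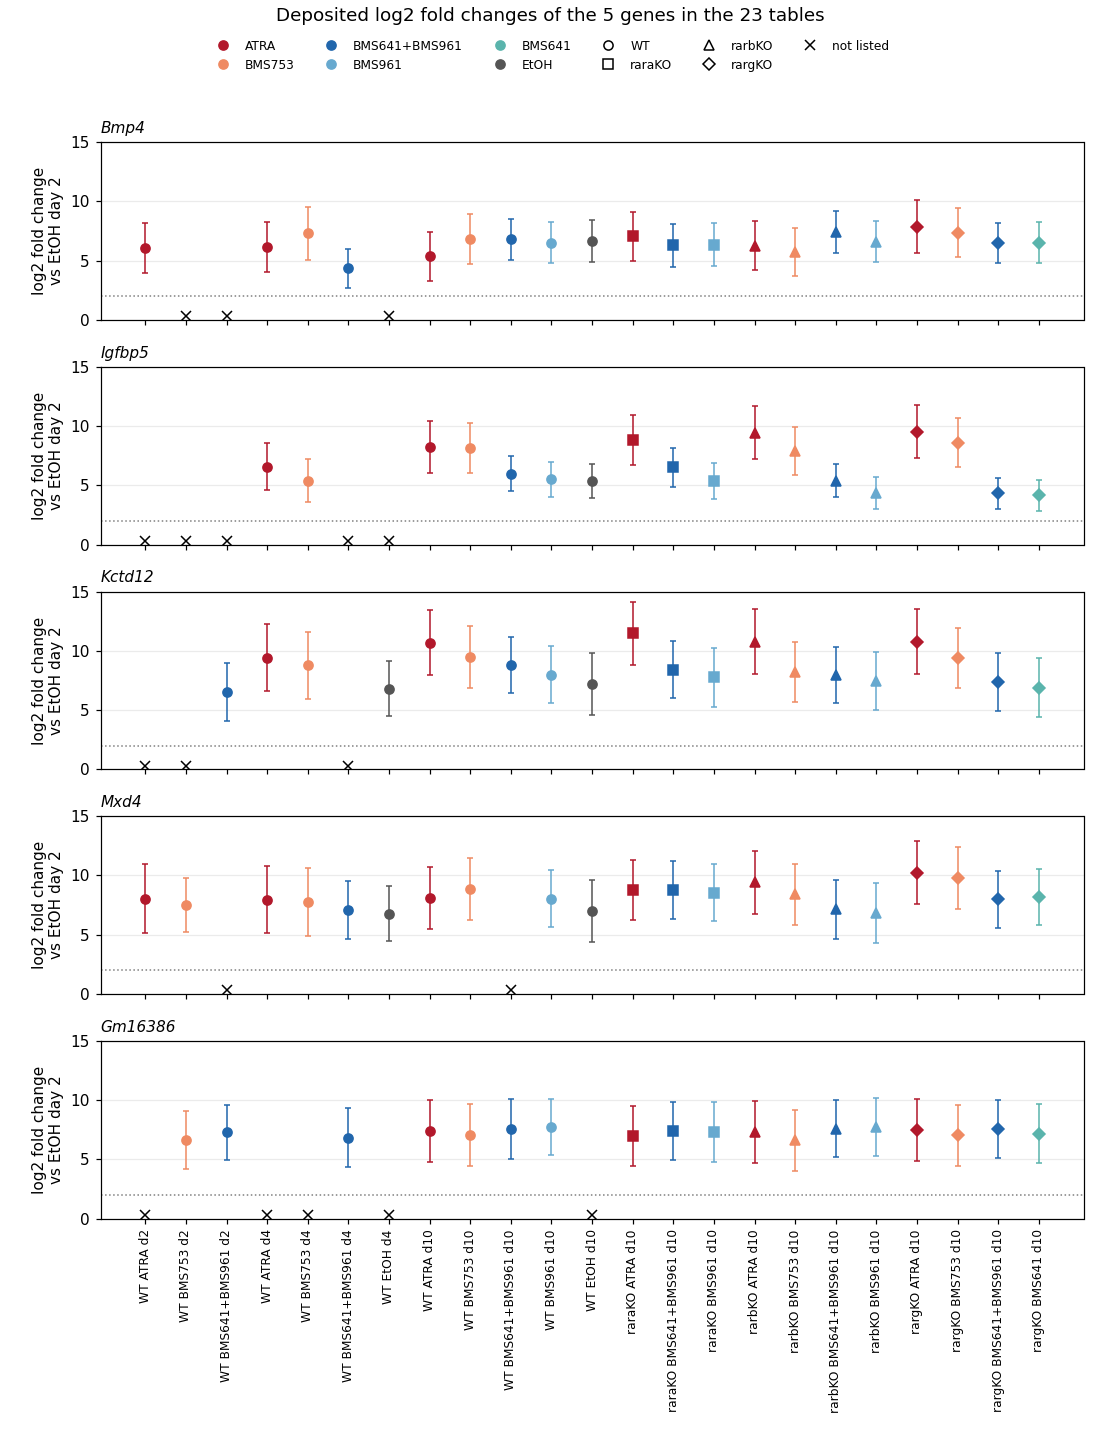
Deposited log2 fold change of each gene (vertical axis, log2 units against the WT ethanol library of day 2) in the 23 tables (horizontal axis), with bars of 1 implied standard error, colour for the ligand, shape for the line, a cross where the gene is not listed and a dotted line at the threshold of 2. For Kctd12 every red ATRA point of day 10 is above all its other points. For Igfbp5 the highest point is also of ATRA, but the WT ATRA point of day 10 (8.24) is below that of rargKO with BMS753 (8.59). Most crosses are at days 2 and 4. Gm16386 stays between 6.62 and 7.74 where it is listed.

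Of the 4 members listed in ethanol at day 10, Bmp4 rose by about as much with vehicle as with a ligand. Its log2 fold change was 6.68 in ethanol at day 10. With ATRA at day 10 it was 5.36 in WT, 7.04 in raraKO, 6.28 in rarbKO and 7.86 in rargKO cells. The vehicle value lay inside the range of the 4 ATRA libraries. With BMS753 it was 6.84 in WT, 5.75 in rarbKO and 7.37 in rargKO cells, and the vehicle again lay between them. BMS641+BMS961 gave 6.79 in WT, 6.30 in raraKO, 7.42 in rarbKO and 6.51 in rargKO cells. BMS961 alone gave 6.52, 6.34 and 6.61 in WT, raraKO and rarbKO cells, and BMS641 alone 6.53 in rargKO cells. These last 4 values, all from a single RARβ or RARγ agonist, were slightly under the vehicle value. The excess over ethanol, which is the log2 fold change in a table minus that in the ethanol table of day 10, had a median of -0.02 over the 4 ATRA tables, with a range of -1.32 to 1.18. Its median was 0.17 with BMS753, -0.03 with BMS641+BMS961 and -0.16 with BMS961. Over all 15 ligand tables, 6 lay above ethanol and 9 below.

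The day on which Bmp4 was first listed differed between ligands in WT cells, and a rise too small to be listed may have come earlier. With ATRA it was listed at all 3 times, at 6.05, 6.15 and 5.36 for days 2, 4 and 10. With BMS753 it was not listed at day 2 and stood at 7.33 and 6.84 at days 4 and 10. With BMS641+BMS961 it was first listed at day 4, at 4.34, its smallest value in any table, and reached 6.79 at day 10, a difference of 2.45. In ethanol it was listed only at day 10. The largest difference between lines was with ATRA, where rargKO exceeded WT cells by 2.50, a difference at percentile 97.5 of the 357 genes listed in both tables, whose median was -0.21. WT cells had the lowest of the 4 ATRA values.

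Igfbp5 separated by ligand at day 10. Its log2 fold change was 5.33 in ethanol. With ATRA it was 8.24 in WT, 8.83 in raraKO, 9.45 in rarbKO and 9.51 in rargKO cells, and with BMS753 8.14 in WT, 7.90 in rarbKO and 8.59 in rargKO cells. All 7 of these values were above every other value of day 10. ATRA and BMS753 were given at 1 µM and BMS641 and BMS961 at 0.1 µM, so in this and every contrast between these pairs of ligands, dose and ligand cannot be told apart. BMS641+BMS961 gave 5.98 in WT, 6.51 in raraKO, 5.40 in rarbKO and 4.31 in rargKO cells. BMS961 alone gave 5.51 in WT, 5.36 in raraKO and 4.34 in rarbKO cells, and BMS641 alone 4.15 in rargKO cells. The vehicle value therefore fell inside the range of the RARβ and RARγ agonists, and 3 of their 8 tables were below it.

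The excess of Igfbp5 over ethanol had a median of 3.81 over the 4 ATRA tables, which is 14.0-fold, with a range of 2.91 to 4.18. With BMS753 the median was 2.80, or 6.99-fold, with a range of 2.57 to 3.26. It was 0.36 with BMS641+BMS961, 0.03 with BMS961 and -1.18 in the 1 table with BMS641. The combination exceeded BMS961 alone in the same line by 0.46 in WT, 1.15 in raraKO and 1.06 in rarbKO cells, and it exceeded BMS641 alone by 0.16 in rargKO cells. Among the genes listed in both tables, these differences were at percentiles 73.3, 84.3, 92.7 and 72.3, in that order. With the combination, rargKO cells were 1.66 below WT cells on the log2 scale (4.31 against 5.98), a difference at percentile 1.54 of the 130 genes listed in both tables. Igfbp5 was also the only member in 0 of the day 2 tables. In WT cells it was listed at day 4 at 6.58 with ATRA and 5.40 with BMS753, and these values were 1.65 and 2.73 lower than at day 10. With BMS641+BMS961 and with ethanol it was first listed at day 10.

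**Figure D2:**
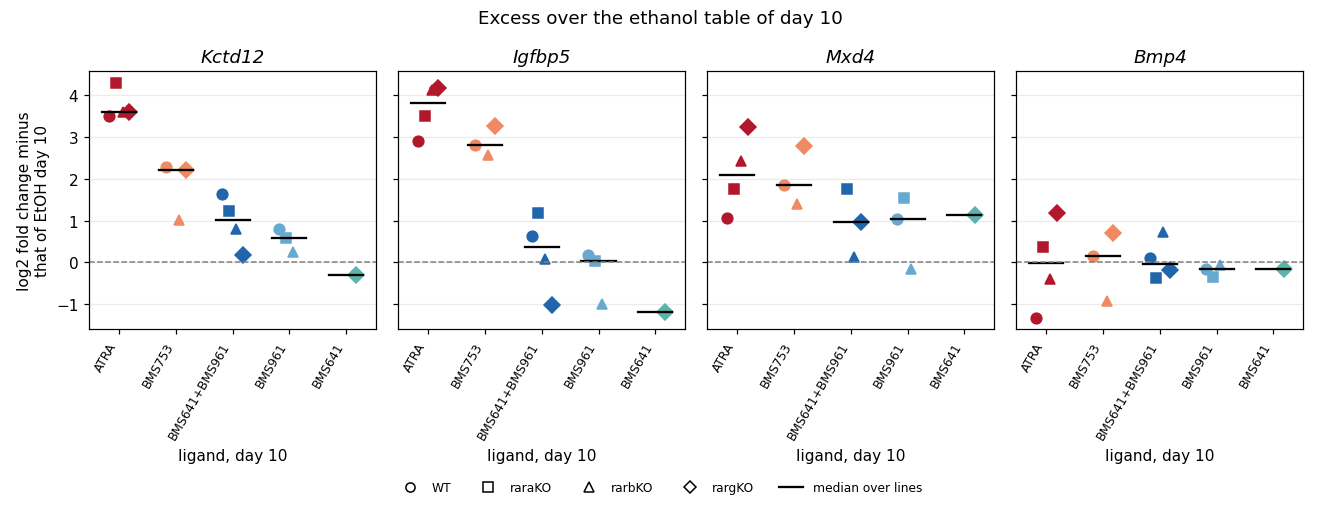
Excess over the ethanol table of day 10 (vertical axis, difference of 2 deposited log2 fold changes) by ligand (horizontal axis) for the 4 genes listed in that table, with 1 point per line, shape for the line and a black bar at the median. Kctd12 and Igfbp5 stand at medians of 3.60 and 3.81 with ATRA and of 0.58 and 0.03 with BMS961, whereas the Bmp4 points lie on both sides of 0 with ATRA, BMS753 and BMS641+BMS961.

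Kctd12 reached the largest single value of the 5 genes. Its day 10 median was 8.31 over 16 tables, against 8.42 for Mxd4 over the 15 that list Mxd4, an order that the unlisted Mxd4 value could change. In what follows the values are those of Kctd12. Its log2 fold change was 7.18 in ethanol at day 10. ATRA gave 10.69 in WT, 11.48 in raraKO, 10.78 in rarbKO and 10.78 in rargKO cells. BMS753 gave 9.48 in WT, 8.21 in rarbKO and 9.39 in rargKO cells, each below every ATRA value, but the rarbKO value was within the range of the combination. With BMS641+BMS961 it was 8.81 in WT, 8.41 in raraKO, 7.98 in rarbKO and 7.36 in rargKO cells. BMS961 alone gave 7.98, 7.77 and 7.45 in WT, raraKO and rarbKO cells, and BMS641 alone gave 6.89 in rargKO cells, the only ligand table of day 10 below ethanol. In raraKO cells with ATRA it held rank 1 among 333 up-regulated genes, and in WT cells with ATRA rank 5 among 395.

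The excess of Kctd12 over ethanol had a median of 3.60 with ATRA, or 12.1-fold (range 3.51 to 4.30), 2.20 with BMS753 (1.02 to 2.29), 1.01 with BMS641+BMS961 (0.18 to 1.63) and 0.58 with BMS961 (0.26 to 0.80). ATRA exceeded BMS753 by 1.22 in WT, 2.58 in rarbKO and 1.39 in rargKO cells, differences at percentiles 90, 90.6 and 92.1 of the genes listed in both tables. Both ligands were given at the same dose. The combination exceeded BMS961 by 0.83, 0.64 and 0.53 in WT, raraKO and rarbKO cells and exceeded BMS641 by 0.47 in rargKO cells. These differences were at percentiles 87.2, 64.3, 87.7 and 87.2 of the genes listed in both tables, in that order. With the combination, rargKO cells were again below WT cells, at 7.36 against 8.81, a difference of -1.45 at percentile 3.08 of the 130 shared genes. Kctd12 was listed early in vehicle, at 6.81 at day 4. In WT cells it was 9.40 with ATRA and 8.79 with BMS753 at day 4, and 6.52 with BMS641+BMS961 at day 2, although the combination table of day 4 does not list it.

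Mxd4 was the most widely up-regulated member and was listed in 6 of the 7 tables of days 2 and 4. At day 2 it was already at 8.05 with ATRA and 7.51 with BMS753 in WT cells. With ATRA it then stayed at 7.97 at day 4 and 8.09 at day 10, whereas with BMS753 it went from 7.75 to 8.88. In ethanol it was 6.78 at day 4 and 7.01 at day 10, a difference of 0.24. BMS641+BMS961 gave 7.07 at day 4, and neither the day 2 nor the day 10 table of that treatment in WT cells lists it.

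At day 10 ATRA gave Mxd4 values of 8.09 in WT, 8.76 in raraKO, 9.44 in rarbKO and 10.25 in rargKO cells, and BMS753 gave 8.88 in WT, 8.42 in rarbKO and 9.79 in rargKO cells. All 7 were above ethanol, by a median of 2.08 with ATRA (range 1.07 to 3.24) and 1.86 with BMS753 (1.40 to 2.78). The RARβ and RARγ agonists overlapped both the vehicle and the ATRA values. BMS641+BMS961 gave 8.77 in raraKO, 7.14 in rarbKO and 7.98 in rargKO cells, BMS961 gave 8.05 in WT, 8.55 in raraKO and 6.86 in rarbKO cells, and BMS641 gave 8.14 in rargKO cells. Of the lines listed, raraKO cells were the highest and rarbKO cells the lowest both with BMS961 and with the combination. With ATRA, rargKO cells exceeded WT cells by 2.16, at percentile 96.4 of the 357 shared genes.

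Of the 5 genes, Gm16386 had the narrowest range of listed values, from 6.62 to 7.74 over its 18 tables. A value under a limit of 5.94 to 6.70 would not have been listed, so the p-value filter bounds this range from below. With ATRA at day 10 Gm16386 was 7.39 in WT, 6.97 in raraKO, 7.33 in rarbKO and 7.48 in rargKO cells. With BMS753 it was 7.06 in WT, 6.62 in rarbKO and 7.03 in rargKO cells. The values with RARβ and RARγ agonists overlapped these and reached higher. BMS641+BMS961 gave 7.54 in WT, 7.39 in raraKO, 7.59 in rarbKO and 7.57 in rargKO cells, BMS961 gave 7.74, 7.32 and 7.73 in WT, raraKO and rarbKO cells, and BMS641 gave 7.17 in rargKO cells. Its ligand medians thus ran from 7.03 with BMS753 and 7.36 with ATRA to 7.55 with the combination and 7.73 with BMS961, whereas Kctd12 and Igfbp5 had their highest median with ATRA. The Gm16386 medians lay closer together than the standard error of any of its values, 2.31 to 2.60. In WT cells the combination table lists it at all 3 times, at 7.28, 6.85 and 7.54, and BMS753 at day 2, at 6.63. No ATRA table before day 10 lists it. Since it is in neither ethanol table, no excess could be given. In 7 of its 18 tables another gene had the same log2 fold change to within 0.0005, which was so in 4 of 21 tables for Mxd4, 3 of 20 for Kctd12, 1 of 18 for Igfbp5 and 0 of 20 for Bmp4.

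**Figure D3:**
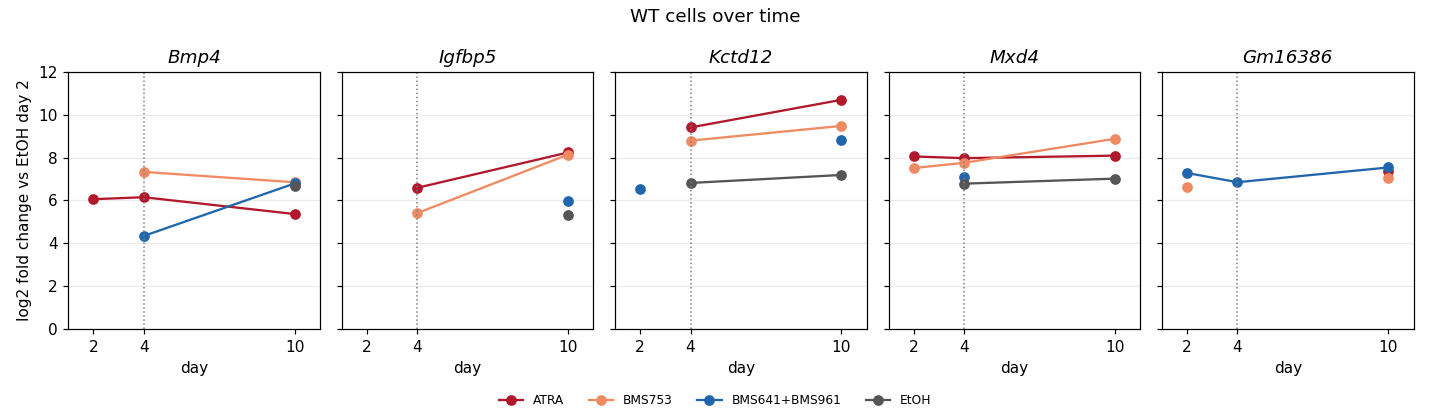
Log2 fold change against the WT ethanol library of day 2 (vertical axis) at days 2, 4 and 10 (horizontal axis) in WT cells, coloured by treatment, with no point where a gene is not listed, lines only between neighbouring times that both list it, and a dotted line at day 4, when ligand was withdrawn. Mxd4 with ATRA runs level at 8.05, 7.97 and 8.09, and Igfbp5 has no point at day 2.

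The error that the authors' model gave each value was large, and it is not a spread between replicates. The standard error that gives the deposited p-value for a deposited log2 fold change (Wald test, two-sided) was 1.31 to 2.24 for Igfbp5, 1.61 to 2.24 for Bmp4, 2.29 to 2.82 for Kctd12, 2.28 to 2.89 for Mxd4 and 2.31 to 2.60 for Gm16386. At these errors, a value under a certain limit would not have been listed. The limit was 3.37 to 5.78 for Igfbp5, 4.14 to 5.76 for Bmp4, 5.90 to 7.28 for Kctd12 and 5.88 to 7.43 for Mxd4. The p-value filter thus restricts their low values too, those in ethanol included. For the excess over ethanol, the root of the sum of both squared errors was between 1.94 and 3.78, which is an upper bound because both tables share the reference library. For each of the 4 genes, 0 excess values were past 1.96 times this bound, which does not show that ligand and vehicle act alike. With so large a fold change, the size also depends on a reference level that the tables do not give. Over the genes listed both in a ligand table of day 10 and in the ethanol table, between 77 and 162 in number, the median difference lay between -0.15 and 0.40. These are genes with a large change in both tables, so this median does not measure a shift over all genes.

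The members fell into those that followed the ligand together and those that did not. Over the 18 tables listing both, Igfbp5 and Kctd12 had a Pearson r of 0.89 (Spearman rho 0.93). Igfbp5 and Mxd4 had an r of 0.77 over 17 tables, and Kctd12 and Mxd4 0.67 over 18. Bmp4 had an r of 0.06 with Igfbp5 and 0.10 with Kctd12, and Gm16386 had -0.49 with Igfbp5 over 15 tables. All tables share the reference library, several share a line or ligand, and unlisted values are missing, so these values only describe the tables.

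**Figure D4:**
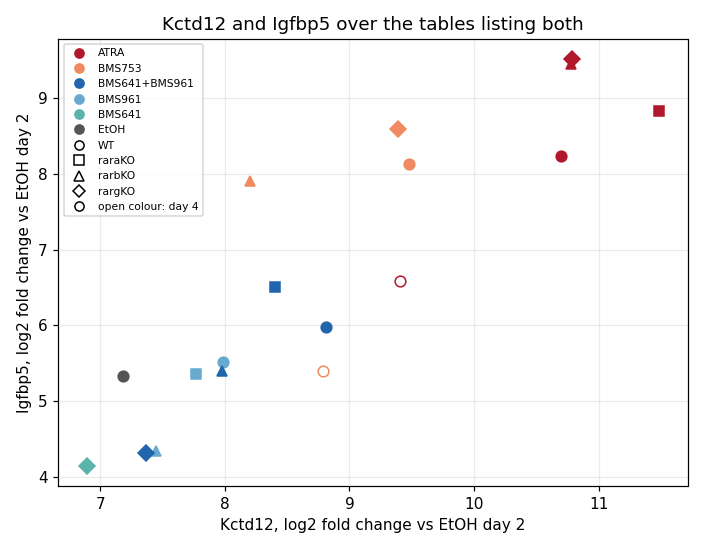
Log2 fold change of Igfbp5 (vertical axis) against that of Kctd12 (horizontal axis), both against the WT ethanol library of day 2, in the 18 tables that list both, coloured by ligand, with shape for the line and open symbols for day 4. The 4 ATRA points of day 10 lie at the upper right and the rargKO point with BMS641 at the lower left.

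The genes most like a member were sought among all genes up-regulated in at least 80% of its tables, the other members included. The closest to Igfbp5, among 21 candidates, were Plk2, a polo-like kinase (r = 0.94 over 15 tables), Col11a1, a fibrillar collagen chain (0.93 over 17), and Cdkn2c, an inhibitor of the cell cycle kinases CDK4 and CDK6 (0.89 over 17). For Kctd12, with 12 candidates, they were Igfbp5, then Nr2f2, the orphan nuclear receptor COUP-TFII (0.87 over 16), and Col11a1 (0.81 over 17). Mxd4 had 3 candidates, all of them members. Bmp4, with 16 candidates, was closest to Plau, the urokinase-type plasminogen activator (0.57 over 16), and Gm16386, with 9, to Arrdc4, an arrestin-related protein (0.54 over 15), and the next closest to each were members. Among their candidates, Bmp4 and Gm16386 thus had no gene with an r as high as those listed for Igfbp5 and Kctd12.

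The genes around each member in its pathway were counted in the same way. Of 40 genes of BMP signalling, 14 are in any table. At day 10, 2 to 4 of the 40 were up-regulated with ATRA or BMS753, 1 to 5 with the RARβ and RARγ agonists, and 3 in ethanol. Bmp4 itself is 1 of each count. Of the 1753 genes in any table, to which 14 of the 40 belong, the shares were 19% to 22.5%, 7.02% to 16.8% and 9.53%. Nothing particular to this list is read from the counts. Among the ligands, Bmp2 was up-regulated in 15 tables, with a median of 7.81 and a value of 7.99 in ethanol at day 10, Bmp6 in 8 and Bmp5 in 1. Gdf3, a relative made by pluripotent cells, was down-regulated in 14, and Gdf6 in 1. Nog, the secreted BMP antagonist noggin, was up-regulated in 8 tables, with 4.25 in ethanol at day 10, and Bmper, another extracellular regulator, in 1, whereas Fst, the antagonist follistatin, was down-regulated in 1. Of the transcriptional targets of the pathway, Msx1 was up-regulated in 6 tables, Id3 in 4, and Id1 and Msx2 in 2 each, and Id4 was down-regulated in 1.

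Of 21 genes of the insulin-like growth factor axis, 8 are in any table, and 4 to 6 were up-regulated at day 10 with ATRA or BMS753, 1 to 3 with the RARβ and RARγ agonists, and only Igfbp5 in ethanol. The share of all genes up-regulated was also higher with ATRA or BMS753, at 19% to 22.5% against 7.02% to 16.8% with the RARβ and RARγ agonists, so nothing particular to this list is read from the counts. The ligands Igf2 and Igf1 were up-regulated in 9 and 7 tables, with medians of 5.05 and 6.57. The binding protein gene Igfbp4 was up-regulated in 8, as was Pappa, whose product is a protease that cleaves binding proteins of this family. Igf2r, the receptor that clears IGF2, was up-regulated in 3. Igf1, Igf2 and Igfbp4 are not listed in ethanol at day 10.

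Of 13 genes of the GABAB receptor complex, 4 are in any table, and neither receptor subunit, Gabbr1 or Gabbr2, is among them. Kctd12b, a close relative of Kctd12, was down-regulated in 7 tables, with a median of -6.13, and Kcnj3, a potassium channel subunit that the receptor opens, in 6. Kcnj9, another such subunit, was up-regulated in 1. Of 16 genes of the MYC, MAX and MXD network, 2 are in any table. Mxd3, which like Mxd4 pairs with MAX, was up-regulated in 6 tables, with values of 3.63 to 5.20. Myc, Mycn and Max are in 0 of the 23 tables.

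Marker lists of several cell types were counted in the same tables, and in bulk RNA more cells of a type and more RNA per cell cannot be told apart. The shares of all 1753 genes up-regulated at day 10 are given above. They were 19% to 22.5% with ATRA or BMS753, 7.02% to 16.8% with the RARβ and RARγ agonists and 9.53% in ethanol. These shares are over genes in at least 1 table, whereas most lists also hold genes in none. In any table were 6 of 10 neuron, 9 of 9 mesenchyme, 4 of 5 epithelium, 4 of 7 astrocyte, 2 of 7 endoderm and 5 of 9 pluripotency markers. Counts out of a full list are thus not on the same base as the shares, and nothing is read from one against the other. Of 10 neuron markers, 1 to 6 were up-regulated at day 10 with ATRA or BMS753, 0 to 2 with the RARβ and RARγ agonists and 0 in ethanol, and Rbfox3, Stmn2, Snap25 and Syp are in 0 tables. Of 9 mesenchyme markers, 4 to 6 were up-regulated with ATRA or BMS753, 0 to 7 with the RARβ and RARγ agonists and 3 in ethanol. Of 5 epithelium markers, the counts were 0, 0 to 2, and 3, with Krt8 at 3.50 in ethanol, whereas Cdh1, the epithelial cadherin, was down-regulated in 7 tables, with a median of -5.02. Of 5 markers of oligodendrocyte precursors, only Pdgfra is in any table, up-regulated in 15 and not listed in ethanol. Of 7 astrocyte markers, 0 to 1 were up-regulated and 0 to 1 down-regulated with ATRA or BMS753, whereas 0 were up-regulated in the other day 10 tables and 1 to 2 down-regulated with the RARβ and RARγ agonists and 2 in ethanol. Aldh1l1 was the main one, down-regulated in 13 tables with a median of -6.45 and at -6.06 in ethanol at day 10. Of 7 endoderm markers, 0 to 2 were up-regulated with ATRA or BMS753 and 0 in the other day 10 tables. Of 9 pluripotency markers, 1 to 4 were down-regulated with ATRA or BMS753, 0 to 2 with the RARβ and RARγ agonists and 2 in ethanol. Pou5f1 was down-regulated in 9 tables, with a median of -9.88, and is not listed in ethanol, whereas Nanog was at -3.24 and Tdgf1 at -3.37 there. Klf4, of the same list, went the other way and was up-regulated in 8 tables, with 3.87 in ethanol at day 10. The part of these cell types in the values of the 5 genes was not tested.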

How the data were processed

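RNA of P19 cells was captured by poly-T and sequenced in 24 samples, 1 library each. Per the labels and methods, the authors aligned the reads to mm9 with Bowtie2 2.1.0, counted them per gene (featureCounts), and set each library against the WT ethanol library of day 2 in DESeq2. The authors deposited 23 tables of log2 fold changes with unadjusted p-values, all under 0.01. For WT, ATRA, day 2, a column of the authors' standard errors (log2 units) was deposited as well, treated as a score. These columns are the authors' own comparison, used here because the members are defined on them. The tables hold 57 to 546 genes. The number of genes tested and the depth of the libraries are unknown, so the only precision given is that of the authors' model.

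The members and gene lists were chosen with earlier results of these data known. A gene was called up-regulated at a log2 fold change over 2. Standard errors were computed from each log2 fold change and p-value, and for the 144 genes with a deposited one the largest relative difference was 4.27e-08. The excess is a difference between 2 tables. Named genes are the 5 members, the 3 genes with the highest Pearson r with each, the pathway and marker genes in any table, and genes at the edge of the counts, the last named after their values were seen. Shares of called genes are over the 1753 genes in any table. With 1 library per condition, no test was run and lines are not replicates. Only the counting step was tested on simulated data, where 200 of 200 changed genes among 1753 were recovered with 0 others. How many genes are missed or wrongly listed in the deposited tables, given their errors and p-value limit, was not tested. Coordinates are those of GENCODE vM1 (mm9), and promoter sequences those of the RefSeq table (GRCm38.p6), placed in mm9 by exact match. Coding transcripts were searched with blastn 2.17.0+. Software was Python 3.11.15, numpy 2.4.6, pandas 2.3.3, matplotlib 3.10.9 and scipy 1.17.1. The alternatives tried were thresholds of 1 and 3, a p-value limit of 0.001, symbols matched without case, centred tables, BMS961 as vehicle and the mean. Others were the smallest rise listed in a table for an unlisted value, WT cells left out, Spearman rho and, added after the data were seen, day 10 alone. That smallest rise is no upper bound for an unlisted member.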

Additional observations from a re-analysis of the deposited data

Results flagged for a closer look

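Among lines with at least 2 tables of a kind of ligand, in 3 instances every table of 1 line lay above the ethanol table of day 10 and every table of another line lay below it under that kind of ligand. With 1 library per condition, the difference between the lines was not tested in any of them. The ethanol table is of WT cells, so the mutant lines have no vehicle of their own here.

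With ATRA or BMS753, Bmp4 exceeded ethanol in both rargKO tables, by 0.70 and 1.18 on the log2 scale, and lay below it in both rarbKO tables, at -0.93 and -0.40. The medians of the 2 lines differed by 1.61.

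With the RARβ and RARγ agonists, Igfbp5 lay below ethanol in both rargKO tables, at -1.18 and -1.02. It lay above ethanol in WT cells, at 0.18 and 0.64, a difference of medians of 1.51, and in raraKO cells, at 0.03 and 1.18, a difference of 1.70. The rargKO tables are of BMS641 and BMS641+BMS961, whereas those of WT and raraKO cells are of BMS961 and BMS641+BMS961, so the single agonist differs between them.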

How the results depend on the processing

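Of 75 recomputed values, 67 stayed within 1.5 times the count, or within 1 SD over the tables, of the value reported. With a p-value limit of 0.001, the number of tables in which a gene was up-regulated fell to 12 for Bmp4, 11 for Kctd12, 10 for Mxd4 and 0 for Gm16386, and was 14 for Igfbp5. A stricter limit removes listed values by construction. With BMS961 in WT cells in place of ethanol, the median excess of Kctd12 over the tables of RARβ and RARγ agonists changed sign, from 0.69 to -0.22. That of Mxd4 went from 1.86 to 0.83 with ATRA or BMS753 and from 1.03 to 0.019 with the RARβ and RARγ agonists. In the same setting, the sign and size of the excess of Igfbp5 and Kctd12 with ATRA or BMS753 stayed within 1 SD. With Spearman rho, 1 of the 3 genes most like Igfbp5 was shared with the list by Pearson r. Thresholds of 1 and 3, matching without case, centring, the mean, leaving out WT cells and, added after the data were seen, the day 10 tables alone moved no value past these limits. The smallest listed value of any member was 4.15, so thresholds of 1, 2 and 3 had to give the same counts. These counts are among the 67 and are no check of the result.

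No paired analysis was possible because each condition has 1 library, so no replicate numbers pair the samples, and differences between ligands within a line are given as values only. The depth of the libraries is unknown, so it cannot be said how many reads stand behind the reference level of a gene. A gene that is not listed may have risen below the limit of its table. In day 10 tables, no listed gene had a change under 2.71 on the log2 scale. The limits of the members, given above with their standard errors, were higher, from 3.37 for Igfbp5 up to 7.43 for Mxd4. An unlisted member may thus have risen by more than 2.71.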
